A study of Homo sapiens with 4 samples.

Results

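Promoters of the nuclear genes that encode the subunits of the oxidative phosphorylation (OXPHOS) complexes were examined for new methylation peaks in an MBD-seq experiment. The 86 genes were taken by symbol from the protein-coding genes of GENCODE 44 lifted to hg19, of which there were 20162, and comprised 38 genes of complex I (NDUF), 4 of complex II (SDH), 9 of complex III (UQCR), 17 of complex IV (COX) and 18 of complex V (ATP5). A promoter was the stretch from 1000 bp before to 1000 bp after the start of the canonical transcript, and it was counted as having a new peak where at least 1 bp of a listed peak fell into it. The symbols left out true subunits of other names, such as CYC1, the cytochrome c1 of complex III, and NDUFAB1 of complex I, which are described with the other OXPHOS genes. The readthrough genes ATP5MF-PTCD1 and NDUFC2-KCTD14 were left out. NDUFA4 and NDUFA4L2 were kept with complex I by symbol, although the NDUFA4 protein is a subunit of complex IV.

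The cells were HEK293, a human embryonic kidney line, transfected transiently with dCas9-SunTag, which is a catalytically dead Cas9 with a peptide array, an sgRNA for the CpG island of ISG15, and Ab-3A3L, an antibody fragment that binds the array and carries the catalytic part of DNMT3A joined to DNMT3L. Cells holding all plasmids were sorted 3 days later, so that the wild type, K844E and R887E conditions differed in the DNMT3A part and the untreated cells had received none of it. DNA was sheared, and fragments with methylated CpGs were captured on MBD2, a methyl-CpG binding protein, and sequenced, with 1 library for each of the 4 conditions. The values below come from the authors' list of 12864 peaks of the wild type library that were new against untreated cells. Files of the other 3 libraries were not used here, and without replicates no difference between conditions could be tested.

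OXPHOS complexes sit in the inner mitochondrial membrane. Complex I oxidises NADH, complex II oxidises succinate, complex III passes the electrons to cytochrome c, complex IV passes them to oxygen, and complex V, the ATP synthase, uses the proton gradient to make ATP. A few core subunits are encoded in mitochondrial DNA, and the rest come from nuclear genes that are active in nearly all cells, mostly from CpG island promoters, which are as a rule free of methylation. The transcription factors NRF1, GABPA and YY1 are known to bind many of these promoters.

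Most of these promoters carried no new peak. A new peak was found at 24 of the 86 OXPHOS promoters (27.9%, 95% exact binomial interval 18.8 to 38.6%), beside 41.6% of all protein-coding promoters. Promoters that overlapped a CpG island numbered 80, and 24 of these had a new peak (30.0%, interval 20.3 to 41.3%), beside 57.5% of all island promoters. All 24 thus lay at island promoters, and 0 of the 6 promoters outside islands had one, which allows a share of up to 50%. The intervals cover counting error only. A promoter without a new peak may have stayed unmethylated, may have gained too little signal to be listed, or may have been methylated already in untreated cells. The list cannot tell these apart.

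The sequences below are the stretch just before the start site for COX4I1, UQCRH and COX8A, the widely expressed isoforms that had a new peak, for COX8C, the testis form beside COX8A, which had none, and for NDUFB2, the gene whose peak had the highest fold. They are from GRCh37 and read 5′ to 3′ on the strand of the gene, and capitals mark CpGs. COX4I1 is given at chr16:85833151-85833300 (plus strand) and UQCRH at chr1:46769289-46769369 (plus strand). COX8A is given at chr11:63741842-63742091 (plus strand), COX8C at chr14:93813278-93813527 (plus strand) and NDUFB2 at chr7:140396258-140396507 (plus strand).
COX4I1: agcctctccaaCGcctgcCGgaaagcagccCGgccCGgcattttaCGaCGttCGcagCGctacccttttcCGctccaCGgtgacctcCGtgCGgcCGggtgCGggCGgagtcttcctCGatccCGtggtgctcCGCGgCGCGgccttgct
UQCRH: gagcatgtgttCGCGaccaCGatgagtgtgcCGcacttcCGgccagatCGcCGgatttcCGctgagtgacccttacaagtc
COX8A: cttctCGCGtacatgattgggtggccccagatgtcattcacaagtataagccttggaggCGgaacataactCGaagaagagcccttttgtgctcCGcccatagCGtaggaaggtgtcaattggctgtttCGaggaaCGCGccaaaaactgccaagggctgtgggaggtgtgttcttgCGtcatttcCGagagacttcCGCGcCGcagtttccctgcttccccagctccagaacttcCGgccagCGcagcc
COX8C: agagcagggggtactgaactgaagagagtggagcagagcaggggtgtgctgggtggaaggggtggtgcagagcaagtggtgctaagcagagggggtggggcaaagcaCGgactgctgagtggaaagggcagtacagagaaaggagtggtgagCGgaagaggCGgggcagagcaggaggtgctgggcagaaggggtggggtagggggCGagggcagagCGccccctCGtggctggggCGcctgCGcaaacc
NDUFB2: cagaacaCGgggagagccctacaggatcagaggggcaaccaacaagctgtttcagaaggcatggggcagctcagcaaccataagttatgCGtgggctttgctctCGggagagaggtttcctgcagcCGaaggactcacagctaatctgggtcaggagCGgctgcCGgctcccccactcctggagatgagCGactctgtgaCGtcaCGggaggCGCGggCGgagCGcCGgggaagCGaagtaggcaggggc

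The new peaks of COX4I1, UQCRH and COX8A lay outside the stretches shown, and that of NDUFB2 overlapped its stretch in part. In these stretches COX4I1 held 21 CpGs in 150 bases and UQCRH held 8 in 81 bases. COX8A held 16 and COX8C 8, over 250 bases each, and NDUFB2 held 15 in 250 bases. Over the whole promoter of 1000 bp on either side there were 164 CpGs at COX4I1 and 65 at COX4I2, 122 at UQCRH and 46 at its retrocopy UQCRHL, and 115 at COX8A and 80 at COX8C.

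A second set shows NRF1 motifs at a promoter with a new peak and at a promoter without one. SDHA, with a new peak, is given at chr5:218269-218434 (plus strand) and NDUFB4, without one, at chr3:120314933-120315182 (plus strand). Capitals here mark matches to the NRF1 motif CGCANGCGC on either strand. This pair was chosen after the values were seen.
SDHA: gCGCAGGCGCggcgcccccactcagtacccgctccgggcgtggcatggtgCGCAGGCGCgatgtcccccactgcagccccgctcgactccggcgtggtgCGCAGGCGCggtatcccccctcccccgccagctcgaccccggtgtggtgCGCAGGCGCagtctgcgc
NDUFB4: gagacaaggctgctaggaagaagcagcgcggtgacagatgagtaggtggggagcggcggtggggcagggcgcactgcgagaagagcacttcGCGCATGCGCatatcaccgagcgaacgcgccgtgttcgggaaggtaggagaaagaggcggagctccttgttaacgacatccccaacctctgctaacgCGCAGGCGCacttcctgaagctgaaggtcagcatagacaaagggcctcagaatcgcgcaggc

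SDHA held 4 separate NRF1 matches in 166 bases. NDUFB4 held 3 matches in 250 bases, 2 of which overlap on opposite strands. The NDUFB4 stretch ends at the start site, inside a further match. From 250 bp before to 50 bp after the start, SDHA and NDUFB4 each held 4 matches.

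Among complex I genes, 10 of 38 promoters had a new peak (26.3%, interval 13.4 to 43.1%). The fold of a peak, as listed by the authors, fitted the number of fragments at its summit plus 1 over the background plus 1, and its median over all peaks of the list was 7.45. The highest fold of all OXPHOS promoters, 14.5, was at NDUFB2, an accessory subunit of the membrane arm, at chr7:140396379-140397441. This peak had 24 fragments at its summit over a background of 0.720, spanned 1063 bp and covered the start site. NDUFC2, another accessory subunit of the membrane arm, had a fold of 12.4 with 19 fragments at chr11:77790418-77791101. NDUFV3, an accessory subunit of the NADH-oxidising part, had a fold of 8.89 with 16 fragments at chr21:44313002-44313922, and its summit lay 197 bp upstream of the start. The lowest fold of all, 4.66, was at NDUFS6, an accessory subunit of the peripheral arm, where 26 fragments stood over a background of 4.79. The 10 folds of complex I thus ran from 4.66 to 14.5 with a median of 7.58. The remaining members with a peak were NDUFS3 (fold 8.20), NDUFA2 (7.67), NDUFC1 (7.48), NDUFB10 (6.23), NDUFA6 (5.997) and NDUFB8 (5.59).

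By naming series, 2 of 14 NDUFA, 3 of 11 NDUFB, 2 of 2 NDUFC, 2 of 8 NDUFS and 1 of 3 NDUFV promoters had a new peak. The interval of each series held the 41.6% of all protein-coding promoters. It ran from 1.78 to 42.8% for NDUFA and from 15.8 to 100% for NDUFC. Several complex I promoters without a peak were rich in CpGs. NDUFS7 had 137, NDUFB1 136, NDUFA1 134, NDUFB11 130, NDUFA10 128 and NDUFS1 123 within 1000 bp of the start. The promoters of NDUFA3, NDUFA4, NDUFA4L2, NDUFA5, NDUFA7, NDUFA8, NDUFA9, NDUFA11, NDUFA12, NDUFA13, NDUFB3, NDUFB4, NDUFB5, NDUFB6, NDUFB7, NDUFB9, NDUFS4, NDUFS5, NDUFS8, NDUFV1 and NDUFV2 also had none. NDUFS4 had the fewest CpGs of all complex I promoters, 40. Across the 28 complex I promoters without a peak the median was 86 CpGs, and across the 10 with one it was 111.

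In complex II, SDHA was the 1 gene of 4 with a new peak (25%, interval 0.631 to 80.6%). SDHA encodes the flavoprotein that oxidises succinate. Its peak at chr5:218227-219444 had a fold of 12.1 and 28 fragments at its summit, over a background of 1.39. This was the highest number of summit fragments among the OXPHOS promoters with a new peak. The peak spanned 1218 bp, with its summit 599 bp downstream of the start in intron 1. SDHB, the iron-sulfur subunit, had 86 CpGs and no new peak, and its nearest peak was 41909 bp from the start. The membrane anchor genes SDHC and SDHD had 78 and 75 CpGs, with the nearest peak at 14172 and 109101 bp. The SDHA promoter, with 153 CpGs, was thus well above the other 3 in CpG number.

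Complex III had new peaks at 4 of 9 promoters (44.4%, interval 13.7 to 78.8%). UQCRH, the hinge protein that assists electron transfer to cytochrome c, had the highest fold, 11.8, with 18 fragments at chr1:46767650-46768880. That peak ended 490 bp before the start of UQCRH, and its summit lay in intron 1 of the neighbouring gene LRRC41, which starts 82 bp away in the opposite direction. UQCRC1, a core protein, had a fold of 8.20 with 17 fragments at chr3:48646602-48647259, over the start site. UQCRFS1, the Rieske iron-sulfur protein, had a fold of 6.46 with 10 fragments at chr19:29703543-29704259, also over the start. UQCRQ, a small subunit, had the lowest fold, 6.21, with 9 fragments. Of the core pair, UQCRC2 with 83 CpGs had no peak, while UQCRC1 had 120 CpGs. No new peak was found at UQCR10 (88 CpGs), UQCR11 (138), UQCRB (61) or UQCRHL (46), and UQCR11 had more CpGs than any of the 4 promoters with a peak.

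Complex IV had new peaks at 4 of 17 promoters (23.5%, interval 6.81 to 49.9%). Their folds had the lowest median of the 5 complexes, and ran from 4.72 to 6.95 with a median of 5.64. The median fold of the list was reached by 0 of the 4, beside 61.5% of all promoters with a peak. All 4 peaks lay wholly downstream of the start, so that 0 of the 4 covered it, beside 61.2% of all promoters with a peak. Under the limit used here for shares of 0, a count of 0 of 4 allows up to 75%, which is rough with so few peaks. A difference from all promoters with a peak was not tested. COX5A, a subunit on the matrix side, had a fold of 6.95 with 19 fragments at chr15:75229821-75230404, whose near edge was 10 bp from the start. COX4I1, the widely expressed form of subunit 4, had a fold of 5.70 with 10 fragments at chr16:85833393-85833710, although its 164 CpGs were the most of any OXPHOS promoter. COX6C had a fold of 5.59 with 8 fragments, and COX8A, the widely expressed form of subunit 8, had the lowest, 4.72, with 11 fragments. Among promoters without a peak, COX6B2 had 132 CpGs, COX7A1 104, COX5B 102 and COX6A2 100. COX6A1, COX6B1, COX7A2, COX7A2L, COX7B, COX7B2, COX7C, COX8C and COX4I2 had between 46 and 88 CpGs and no new peak.

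Complex V had new peaks at 5 of 18 promoters (27.8%, interval 9.70 to 53.5%). In the F1 head and central stalk, peaks were found at 2 of 5 genes, ATP5F1E and ATP5F1D, which encode the epsilon and delta subunits. The interval for these 5 genes, 5.27 to 85.3%, held the 41.6% of all protein-coding promoters. ATP5F1A and ATP5F1B, which encode the alpha and beta subunits that form the catalytic sites, had 85 and 83 CpGs and no peak, and neither had ATP5F1C with 105. ATP5F1E was the only OXPHOS gene with 2 new peaks at its promoter. The stronger, at chr20:57607447-57607947, had a fold of 11.2 with 17 fragments and lay upstream, and the weaker, at chr20:57606991-57607243, had a fold of 6.21 with 9 fragments and lay downstream. Their near edges were 57 bp and 147 bp from the start, which neither covered. ATP5F1D had the lowest fold of complex V, 4.85, with 22 fragments over a background of 3.74.

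In the peripheral stalk of complex V, 1 of 4 genes had a peak (25%, interval 0.631 to 80.6%). This was ATP5PD, with a fold of 7.12 and 13 fragments at chr17:73042596-73043237. ATP5PF had 133 CpGs, ATP5PB 92 and ATP5PO 62, all without a peak. In the membrane part, 2 of 9 genes had a peak (22.2%, interval 2.81 to 60.01%). This interval and that of the peripheral stalk held the 41.6% of all protein-coding promoters. ATP5MC1, ATP5MC2 and ATP5MC3 encode the same mature c subunit of the rotor, and only ATP5MC3 had a new peak (fold 6.83, 10 fragments, at chr2:176046061-176046455). Within 1000 bp of the start ATP5MC3 had 70 CpGs, and ATP5MC1 and ATP5MC2 had 91 each. Within 250 bp of the start ATP5MC3 had 31, ATP5MC1 24 and ATP5MC2 44. ATP5ME had a fold of 6.54 with 20 fragments, but its peak lay 837 bp upstream of the start, in intron 1 of the neighbouring gene MYL5. ATP5MF, ATP5MG, ATP5MGL, ATP5MJ and ATP5MK had none.

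Set beside all promoters that had a new peak, those of OXPHOS genes had a lower median fold and a like median number of fragments at the summit. The median fold was 6.89 (quartiles 5.92 and 8.38), beside 8.26 (6.21 and 11.1) over all 8386 promoters with a peak. A fold of at least 10 was reached at 5 of 24, namely NDUFB2, NDUFC2, SDHA, UQCRH and ATP5F1E (20.8%, interval 7.13 to 42.15%). This interval held the 32.1% of all promoters with a peak. The median fold of the list was reached at 10 of 24 (41.7%, interval 22.1 to 63.4%), which also held the 61.5% of all. The number of fragments had a median of 16.5, beside 17, and the median background was 0.922 beside 0.720. Their width had a median of 542.5 bp, beside 594 bp, and they held a median of 53.0 CpGs, beside 62.0. With at most 28 fragments at the summit of each peak, small differences in fold between single genes are within counting error.

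The summits lay mostly inside the genes. Downstream of the start were 20 of 24 summits (83.3%, interval 62.6 to 95.3%), beside 70.5% of all promoter peaks, at a median of 234 bp after the start, beside 165 bp. Intron 1 held 14 summits and the region upstream of the gene 4. The 5′ untranslated part of exon 1 held 2, at NDUFB10 and ATP5F1D, the coding part of exon 1 held 2, at NDUFS6 and UQCRFS1, and the coding part of exon 2 held 2, at NDUFS3 and UQCRQ. A summit within 100 bp of the start was found at 2 of 24 (8.33%, interval 1.03 to 27.0%), beside 19.4% of all. The peak covered the start at 13 of 24 (54.2%, interval 32.8 to 74.5%), beside 61.2% of all.

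**Figure D1:**
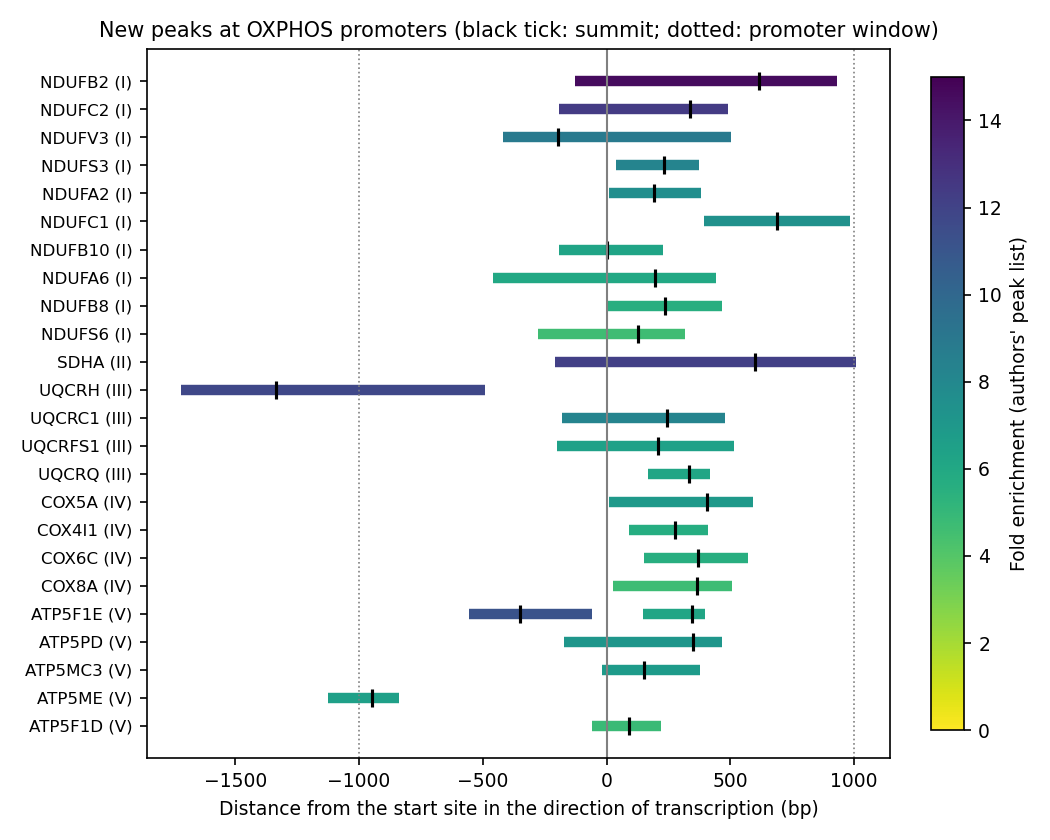
New peaks at the 24 OXPHOS promoters with one, by distance from the start site in bp in the direction of transcription, with the complex in parentheses, colour for the fold and a black tick for the summit. The summits of 20 peaks lie to the right of the start, and UQCRH, ATP5ME, NDUFV3 and ATP5F1E (stronger peak) have theirs to the left.

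The window decided 2 promoters near its edge. ATP5ME was just inside, with its peak 837 bp from the start, and NDUFA11 was just outside, with its nearest peak at 1008 bp. Most promoters without a peak were far from any. The median distance from the start to the nearest new peak was 41460 bp over the 62, and it was over 10000 bp for 55 of them.

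Promoters with a peak held more CpGs than those without, with a wide overlap. The median was 119 CpGs (range 69 to 164) with a peak and 86 (range 39 to 138) without, beside 130 and 63 over all protein-coding promoters. At least 120 CpGs were found at 12 of the 24 promoters with a peak and at 9 of the 62 without. These 9 were UQCR11, NDUFS7, NDUFB1, NDUFA1, ATP5PF, COX6B2, NDUFB11, NDUFA10 and NDUFS1. A peak at fewer than 80 CpGs was found only at ATP5MC3 and NDUFB8, with 70 and 69. OXPHOS promoters as a whole had a median of 90.5 CpGs, beside 96.0 over all protein-coding genes.

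**Figure D2:**
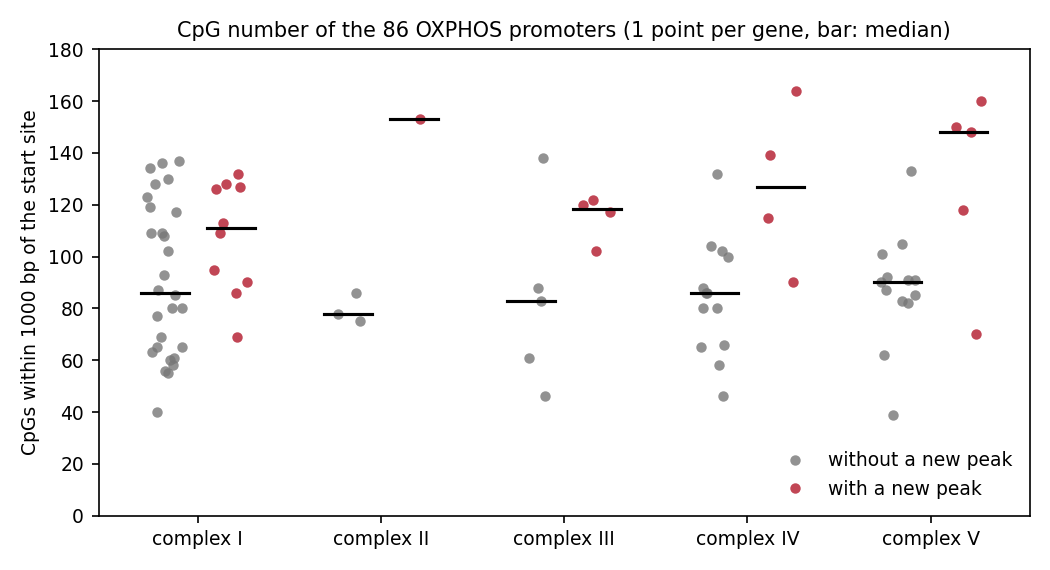
CpG number within 1000 bp of the start for each of the 86 OXPHOS promoters, by complex, with red points for promoters with a new peak, grey points for those without, and black bars for medians. The median over all 5 complexes was 119 with a peak and 86 without, and the ranges overlap in complexes I, III, IV and V.

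At like CpG number, the share of OXPHOS promoters with a peak was below that of all genes in every class except the highest. With 80 to 99 CpGs, the class with the most OXPHOS genes, 4 of 25 had a peak (16.0%, interval 4.54 to 36.1%), beside 40.9% of all promoters of that class. With 100 to 119 CpGs it was 6 of 17 (35.3%, interval 14.2 to 61.7%) beside 59.98%, and with 120 to 139 CpGs 7 of 16 (43.8%, interval 19.8 to 70.1%) beside 68.1%. The interval left out the value of all genes in 1 of the 6 classes, that of 80 to 99 CpGs, and held it in the other 5. With 140 CpGs or more, all 5 had a peak (COX4I1, ATP5ME, SDHA, ATP5F1D and ATP5PD), beside 78.1%. With 60 to 79 CpGs it was 2 of 15 (13.3%) beside 20.5%, and with fewer than 60 it was 0 of 8, which allows a share of up to 37.5%, beside 1.78%.

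Genes of the factors that assemble the complexes, from a list of 53, were set beside the subunits. Of these 53 assembly factors, 33 had a new peak (62.3%, interval 47.9 to 75.2%), beside 41.6% of all genes and 27.9% of the subunits (18.8 to 38.6%). Within CpG islands it was 32 of 51 factors (62.7%, interval 48.1 to 75.9%), which holds the 57.5% of all island promoters, and 30.0% of the subunits (20.3 to 41.3%). The median CpG number of the factors was 96.0, that of all genes. The difference was widest with 80 to 99 CpGs, where 13 of 20 assembly factors had a peak (65.0%, interval 40.8 to 84.6%) beside 4 of 25 subunits and 40.9% of all genes. By complex, peaks were found at 8 of 14 factors for complex I, 3 of 4 for complex II, 5 of 9 for complex III, 14 of 23 for complex IV and 3 of 3 for complex V. The median fold of the factors with a peak was 7.63, beside 8.26 over all promoters with a peak. High folds were found at NDUFAF5 (11.2), TTC19 (13.7), COX18 (13.0) and ATPAF2 (12.4), and low ones at SCO2 (3.78) and ATPAF1 (4.24). At complex IV the peaks were at 60.9% of the factors (interval 38.5 to 80.3%) and 23.5% of the subunits (6.81 to 49.9%), and the intervals overlap.

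A list of 5 other genes joined 2 subunits outside the symbol rule, CYC1 and NDUFAB1, to CYCS, ATP5IF1 and DMAC2L, and 4 of the 5 had a peak (interval 28.4 to 99.5%), beside 41.6% of all genes. These were ATP5IF1 (fold 12.02), DMAC2L (9.93), CYC1 (8.77) and CYCS (7.67), the last being the gene of the electron carrier cytochrome c, and NDUFAB1 had none. Of 10 genes of transcription factors and other regulators of OXPHOS genes, 6 had a peak (interval 26.2 to 87.8%), also beside 41.6%, with folds of 13.7 at PPARGC1B, 11.8 at TFAM, 8.07 at NRF1, 7.08 at YY1, 4.97 at GABPB1 and 4.84 at ESRRA. GABPA, POLRMT, PPARGC1A and TFB2M had none. The median promoter of these regulators held 141 CpGs, and 78.1% of all promoters with 140 CpGs or more had a peak. Of other large sets of subunits, a peak was found at 22 of 78 mitochondrial ribosomal proteins (28.2%, interval 18.6 to 39.5%), 12 of 39 proteasome subunits (30.8%, 17.02 to 47.6%) and 14 of 87 cytosolic ribosomal proteins (16.1%, 9.09 to 25.5%). All 3 intervals overlap that of the OXPHOS subunits.

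Isoforms of limited tissue range and retrocopies had no new peaks. In 8 pairs, the first gene is widely expressed and the second is restricted to some tissues, is induced, or is a retrocopy. The second had a peak in 0 of 8, which allows a share of up to 37.5%, beside 41.6% of all promoters. The first had a peak in 3 of the 8 pairs. The 3 pairs are COX4I1 with COX4I2, UQCRH with UQCRHL, and COX8A with COX8C. Neither gene had a peak in the other 5, COX6A1 and COX6A2, COX6B1 and COX6B2, COX7A2 and COX7A1, COX7B and COX7B2, and NDUFA4 and NDUFA4L2. In 3 of these 5 the restricted gene had more CpGs, with 132 at COX6B2 and 86 at COX6B1, 104 at COX7A1 and 58 at COX7A2, and 100 at COX6A2 and 86 at COX6A1. The 8 restricted genes had a median of 72.5 CpGs, and 20.5% of all promoters with 60 to 79 CpGs had a peak. Without the 8 restricted genes, 24 of 78 promoters had a peak (30.8%, interval 20.8 to 42.2%).

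The motifs known for OXPHOS promoters were searched as fixed letters on both strands from 250 bp before to 50 bp after the start. NRF1 (CGCANGCGC) was found in 27 of 86 OXPHOS promoters (31.4%), beside 10.8% of all promoters. YY1 (AANATGGCG) was found in 22 (25.6%), beside 4.95%, and the ETS motif bound by GABPA (CCGGAAG) in 24 (27.9%), beside 14.0%. SP1 (GGGCGG) was found in 52 (60.5%), beside 60.9%, and CREB (TGACGTCA) in 5 (5.81%), beside 2.68%. CpG islands were overlapped by 93.0% of OXPHOS promoters and 71.7% of all. Over all island promoters the motifs were found in 14.7% (NRF1), 6.50% (YY1), 18.2% (ETS), 77.7% (SP1) and 3.36% (CREB). A new peak was found at 9 of the 27 OXPHOS promoters with the NRF1 motif (33.3%, interval 16.5 to 54.0%) and at 15 of the 59 without it (25.4%, interval 14.98 to 38.4%). Over all genes these shares were 60.03% and 39.4%. For SP1 they were 18 of 52 (34.6%, interval 21.97 to 49.1%) with the motif and 6 of 34 (17.6%, interval 6.76 to 34.5%) without, and 56.5% and 18.3% over all genes. For the ETS motif they were 7 of 24 (29.2%) and 17 of 62 (27.4%), and 44.8% and 41.1% over all genes. For YY1 they were 6 of 22 (27.3%) and 18 of 64 (28.1%), and 47.0% and 41.3% over all genes. For CREB they were 2 of 5 (40%) and 22 of 81 (27.2%), and 48.4% and 41.4% over all genes. The intervals with and without each motif overlap within the OXPHOS genes.

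Many OXPHOS genes share their promoter with a neighbour that starts within 1000 bp upstream in the opposite direction. Of 25 such genes, 8 had a new peak (32%, interval 14.95 to 53.5%), and of the 61 others 16 had one (26.2%, interval 15.8 to 39.1%), beside 50.9% and 40.6% of all genes. Over all genes, CpG islands were overlapped by 96.8% of promoters with such a neighbour and 69.1% of the others. Within islands the order was reversed, with a new peak at 52.6% with such a neighbour and 58.2% without. The intervals were 50.3 to 54.9% and 57.3 to 59.04%. All 25 shared OXPHOS promoters lay in islands, and of the other OXPHOS promoters in islands 16 of 55 had a peak (29.1%, interval 17.6 to 42.9%). Of the 8 peaks at the shared promoters of OXPHOS genes, only that at SDHA also covered the start of the partner, CCDC127. All 8 partners nevertheless had a new peak within 1000 bp of their own start. At UQCRH and ATP5ME the summit lay in intron 1 of the partner. At NDUFA2, NDUFS3, UQCRQ, COX4I1 and ATP5PD it lay on the side of the OXPHOS gene. The X chromosome carries NDUFA1, NDUFB11 and COX7B, of which 0 of 3 had a new peak, too few genes to set a limit, and 8.17% of all promoters on it had one.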

How the data were processed

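MBD-seq of HEK293 cells was analysed for the wild type library. According to the methods, the authors aligned reads with default Bowtie2 to hg19, and the submitters' processing notes list MACS2, with settings not given in the sources used here. The deposited fold is the authors' ratio of summit fragments to background, each plus 1 as the values show. Each deposited −log10 column belongs to a p-value and a q-value, of which the least −log10 q was 2.00. The deposited score repeats the q-value as a whole number and was not used. Groups came from the labels, with 1 library each.

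Summit fragments k and their background rate were solved from the fold, read as (k + 1)/(rate + 1), together with the Poisson p-value of the caller, which missed the listed −log10 p by at most 0.000403. Peaks had a median of 18 fragments and a minimum of 6, and read totals of the libraries were not used. Of the 12864 peaks, 12795 lay on chromosomes 1 to 22, X and Y. Promoters came from GENCODE 44 on GRCh37. The 5′ end of the gene record was used for 281 genes without a canonical transcript, NDUFB6 among them. CpG islands were rebuilt from the unmasked sequence (at least 200 bp, 50% GC and observed/expected 0.6), giving 50888. Each member was described by the peak with the highest fold. Head-to-head partners were protein-coding genes on the opposite strand that start within 1000 bp upstream.

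The members and lists were chosen with earlier results of these data known, and 2 readthrough genes were left out after the files were seen. With 1 library, no test was made, and shares have 95% exact binomial intervals for counting error only. A share of 0 was given the limit of 3 counts of the total. The genes described were, in each complex, the 3 with the highest and the 1 with the lowest fold, every complex II gene, every gene without a peak (1 is not reported here), the isoform pairs, genes on X, those with 2 or more peaks and those sharing a promoter. Alternatives covered the promoter window, the peak threshold, the overlap, the start sites, the gene set, the island criteria and the choice of peak. Steps were tested on simulated data. Software was scipy 1.17.1, numpy 2.4.6 and numba 0.67.0, pandas 2.3.3 for tables, and matplotlib 3.10.9 under Python 3.11.15.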

Additional observations from a re-analysis of the deposited data

How the results depend on the processing

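The share of OXPHOS promoters with a new peak was below that of all promoters in 9 of 9 settings of window, peak threshold, overlap and start site. Of 74 alternative values, 55 stayed within the counting interval or the limit of 1.5 times and 19 did not. At a fold of the list median or more, the share was 11.6% of OXPHOS and 25.6% of all promoters, 0% in complex IV (0 of 17, which allows up to 17.6%) and 5.56% in complex V. With only peaks of a −log10 q of at least 10, it was 12.8% of OXPHOS and 24.6% of all promoters, 13.2% in complex I and 5.88% in complex IV. Where the peak had to cover the start, it was 15.1% of OXPHOS and 26.8% of all promoters, and 0% in complex IV. For all promoters, whose interval is narrow, it was also 36.8% within 250 bp, 39.9% within 500 bp, 42.7% within 2000 bp, 40.5% with the summit inside and 44.1% with any start of a protein-coding transcript. In strict islands of at least 500 bp it was 22 of 52 OXPHOS promoters (42.3%), beside 64.7% of all. With the readthrough genes, an alternative chosen after seeing the data, it was 25 of 88 (28.4%). In the shorter window of 250 bp on either side the median CpG number was 46.0 with a peak and 34.0 without. No paired analysis was possible because each condition has 1 library, and no replicate could be left out. Fragments at the summit, 8 to 28 at OXPHOS promoters, limit comparisons between single genes.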

Other observations

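Within the 24 OXPHOS promoters with a peak, the fold did not follow the CpG number of the promoter (Spearman's rho 0.06, Pearson's r 0.08, n = 24 genes of 1 library, given as a description). It went with the CpGs inside the peak (rho 0.45, r 0.62) and with the width of the peak (rho 0.53, r 0.67). The same rho values over all 8386 promoters with a peak were 0.05, 0.47 and 0.52. Fold, width and CpGs inside the peak come from the same fragments.

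Of the 17 OXPHOS promoters without a new peak that are shared with a neighbour, 3 are given here, chosen after their values were seen. ATP5PF, the coupling factor of the ATP synthase, starts 68 bp from GABPA, a transcription factor known to act on OXPHOS genes, and neither had a new peak although the ATP5PF promoter held 133 CpGs. NDUFB5 starts 156 bp from the mitochondrial ribosomal gene MRPL47, and NDUFA7 starts 121 bp from the cytosolic ribosomal gene RPS28, with 65 and 109 CpGs.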
